A study of Rattus norvegicus with 12 samples.

Results

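The cytosolic ribosome is built from ribosomal RNA and a set of ribosomal proteins, and the genes of those proteins were followed here in rat vein over the first weeks after the vein was placed in an artery. The members were the genes whose symbol begins with Rpl or Rps and a digit, together with the stalk genes Rplp0, Rplp1 and Rplp2 and with Rpsa, and kinases of the ribosomal protein S6 were left out. The array held 78 probes for 76 such genes, 47 of the large subunit and 29 of the small subunit, among 13903 genes that could be given a symbol. Where a gene had more than 1 probe, as Rpl13a and Rplp1 did, the brightest stood for it, and the dimmer probe of Rplp1 gave changes of -0.67, -0.84 and -0.53 where the brighter gave -0.64, -0.84 and -0.58.

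All 12 arrays carried RNA from veins of male rats, with 3 arrays for each day. The day 0 arrays held vein of rats that had no operation. The arrays of days 7, 14 and 28 held vein taken that many days after an external jugular vein had been joined to the carotid artery as a bypass. No strain, age or further treatment is named in the labels, and they do not say whether each array came from its own animal, so the spread behind each p-value is that among these arrays and may be a technical one. Values are log2 of the spot intensity minus the 75th percentile of the array, a scale on which 0 is the 75th percentile. Changes are log2 differences from day 0 with their standard error (SE). A gene is called when its adjusted p in limma is under 0.05.

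Ribosomal proteins stabilise the folded ribosomal RNA, and each subunit needs one copy of nearly every protein, so cells normally make them in matched amounts. Their messenger RNAs are abundant and start with a stretch of pyrimidines, the 5' terminal oligopyrimidine tract, through which growth signals acting on the mTOR kinase and the LARP1 protein control how well they are translated. In the vein wall, growth of smooth muscle cells and fibroblasts after grafting needs new ribosomes. Some members have near-copies elsewhere in the genome, and some of those copies, such as Rpl22l1, are genes in their own right that encode a variant of the same protein. Rodent genomes also hold many processed pseudogenes of these genes, so other copies may add to the signal of a probe.

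The starts of 11 members are shown because the results below turn on them: Rps7, Rps23, Rplp1 and Rpl9 as members lower on every graft day at the scaling used, Rpsa as the member higher on every graft day, and 3 pairs of a gene and a near-copy of it. RefSeq start sites were matched for 61 of the 76 members. Each line gives 30 bases before and 30 bases from the start site, and capitals mark the longest unbroken run of C and T that touches the 15 bases on either side of it.
Rps7 (GRCr8, chr6:50999416-50999475, minus strand): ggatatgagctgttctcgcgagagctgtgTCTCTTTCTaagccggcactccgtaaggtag
Rps23 (GRCr8, chr2:23814487-23814546, plus strand): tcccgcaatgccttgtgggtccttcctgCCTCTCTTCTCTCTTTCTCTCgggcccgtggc
Rplp1 (GRCr8, chr8:71290843-71290902, minus strand): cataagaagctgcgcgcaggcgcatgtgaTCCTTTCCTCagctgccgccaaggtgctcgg
Rpl9 (GRCr8, chr14:43247560-43247619, plus strand): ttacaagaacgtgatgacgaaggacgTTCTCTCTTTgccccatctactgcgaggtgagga
Rpsa (GRCr8, chr8:128728849-128728908, plus strand): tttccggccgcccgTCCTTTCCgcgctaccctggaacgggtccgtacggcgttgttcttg
Rpl22 (GRCr8, chr5:168117931-168117990, plus strand): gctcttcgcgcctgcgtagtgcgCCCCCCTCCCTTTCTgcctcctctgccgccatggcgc
Rpl22l1 (GRCr8, chr2:113683166-113683225, plus strand): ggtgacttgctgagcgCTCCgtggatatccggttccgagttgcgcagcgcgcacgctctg
Rpl36a (GRCr8, chrX:102059419-102059478, plus strand): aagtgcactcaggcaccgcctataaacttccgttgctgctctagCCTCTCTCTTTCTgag
Rpl36al1 (GRCr8, chr6:93392229-93392288, minus strand): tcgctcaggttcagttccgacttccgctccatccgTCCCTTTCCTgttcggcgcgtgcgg
Rps4x (GRCr8, chrX:71342892-71342951, minus strand): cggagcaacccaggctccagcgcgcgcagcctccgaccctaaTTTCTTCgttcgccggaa
Rps4y2 (GRCr8, chr4:183000883-183000942, plus strand): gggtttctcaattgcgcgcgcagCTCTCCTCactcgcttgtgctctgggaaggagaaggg

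A run of at least 8 pyrimidines lay near the start of 45 of the 61 matched members (73.8%), against 3658 of 21842 promoters of all coding genes (16.7%). In Rps23 it was 21 bases long, in Rpl22 it was 15 bases long, and in Rpl22l1 the longest run had 4 bases. Among members lower on at least 1 graft day 14 of 19 had such a run, and among members called on no graft day 29 of 39 had one, so the shares were 73.7% and 74.4%. Letter motifs were searched on both strands of the 300 bases around each start. CTTTCC, which can overlap a pyrimidine run, was in 49.2% of members and 26.3% of all coding promoters. CCGGAAG, the core bound by factors of the ETS family, was in 27.9% of members and 10.7% of all coding promoters, and TATAAA in 11.5% of members and 13% of all coding promoters. A match in letters is a description of the window and says nothing of binding.

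All 76 genes passed the filter of being well above background on at least 3 arrays, and 73 were so on all 12. The exceptions were Rpl11 with 7 arrays, Rpl27l2 with 6 and Rps15 with 11. For Rps15 the array not counted was day 14 replicate 2, where its spot was left out as an outlier. On every array between 68 and 70 members lay above the 75th percentile of the array. The median member lay between 5.87 and 6.50 above it, and it lay above the 99th percentile on every array except day 0 replicate 3 and day 7 replicate 3. That percentile was 6.07 above the 75th on day 7 replicate 3 and between 5.38 and 5.55 above it on the other graft arrays, against 5.74, 5.72 and 6.52 on the day 0 arrays. Of the 4 scans that the file headers give, scan 3 held day 0 replicates 1 and 2 with day 28 replicate 3, scan 4 held day 0 replicate 3 alone, and scans 1 and 2 held the other graft arrays. Days 7 and 14 shared no scan with day 0 and are tied to it only through the day 28 arrays. The scanner called 460 spots non-uniform on day 0 replicate 3 and 393 on day 7 replicate 3, while no other array had more than 11.

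Against unoperated vein, most ribosomal protein genes sat slightly lower at day 7 when arrays were scaled to the 75th percentile, with a median change of -0.24 over the 76 members where the median of all genes was -0.00. This shift of the family depended on the scaling, since with quantile normalization the median change was 0.01. With normexp, a background correction followed here by quantile normalization, the median change was -0.00. At the scaling used, 21 members were lower and 2 higher at day 7, where 15.4% of all tested probes were lower and 17.7% higher. With quantile normalization 3 members were lower and 2 higher, where 3424 of all 21063 tested probes were lower and 3832 higher. Of the small subunit genes 9 of 29 were lower, and of the large subunit genes 12 of 47. In bulk tissue fewer cells of a type and less RNA per cell cannot be told apart.

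The picture at day 14 was the same in size at that scaling, with 20 members lower and 3 higher, where 17.4% of all tested probes were lower and 20.1% higher. The median change was -0.20 over the members and 0.04 over all genes, and with quantile normalization the sign of the members' median turned, to 0.23 with 2 lower and 3 higher. Of all 21063 tested probes 3812 were lower and 4453 higher with that normalization. At day 28 there were 18 members lower and 1 higher, where 16.5% of all tested probes were lower and 17.4% higher. The median change at day 28 was -0.20 over the members and 0.07 over all genes, and with quantile normalization it was 0.27 over the members with 4 lower and 2 higher. Of all tested probes 3387 were lower and 3984 higher at day 28 with that normalization. The authors' deposited table of processed values gave medians of 0.01, 0.23 and 0.27 at days 7, 14 and 28, and normexp gave -0.00, 0.24 and 0.23. Scaling to the array median gave -0.33, -0.29 and -0.17. Within scan 3 the members' median difference between day 28 replicate 3 and day 0 replicates 1 and 2 was -0.22 at the 75th percentile scaling, with 56 of 76 members below 0.

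**Figure D1:**
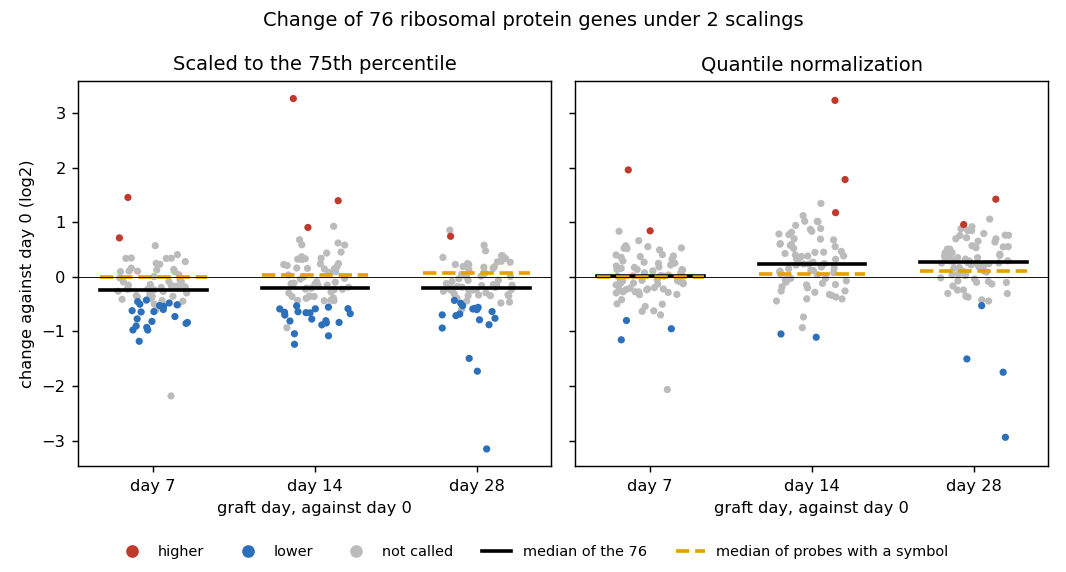
Change of each of the 76 genes at days 7, 14 and 28 against day 0 (log2, vertical axis), with arrays scaled to the 75th percentile on the left and by quantile normalization on the right. Red points are called higher and blue points lower, the black bar is the members' median and the dashed orange bar the median of all probes with a symbol. The black bar lies below the dashed bar on all 3 days on the left (-0.24, -0.20 and -0.20), and on the right it lies at 0.01, 0.23 and 0.27.

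Taking the 3 graft days together against day 0, 25 members were lower and 3 higher, where 20.7% of all tested probes were lower and 22.5% higher. With quantile normalization 6 members were called in all, a count given without a share of all probes. Over the 4 days the F test called 25 of 76 members, against 40.5% of all tested probes. Between graft days few members were called: Rpl36a was higher at day 14 than at day 7, where 1.38% of all tested probes were higher and 1.88% lower, and Rpl36a and Rps4y2 were lower at day 28 than at day 14, where 2.08% were lower and 2.4% higher. No member was called between day 28 and day 7 by limma, where 0.75% of all tested probes were higher and 1.03% lower.

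The members' median on each array, taken as deviation from each gene's own mean, was 0.40, 0.20 and -0.13 on the day 0 arrays, -0.10, -0.08 and -0.09 at day 7, -0.04, 0.06 and -0.03 at day 14, and -0.01, -0.20 and 0.09 at day 28. Day 0 replicates 1 and 2 lay above all graft arrays, and day 0 replicate 3 lay below all of them but day 28 replicate 2. The members varied most among the day 0 arrays, where the median SD of a member was 0.30, compared with 0.13, 0.085 and 0.14 at days 7, 14 and 28. On day 0 replicate 3, 13 of the 76 members (17.1%) were more than 1 log2 unit below the mean of the other day 0 arrays, as were 20.1% of all genes. Rpl13a differed by -1.52 there, as did Rpl41 by -1.53, a gene named after its value was seen. Without that array the median change of the members was -0.39, -0.35 and -0.31 at days 7, 14 and 28, with 25, 23 and 19 members lower. Without day 0 replicate 1 instead, the median change was -0.13, -0.083 and -0.073, with 16, 18 and 15 members lower.

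**Figure D2:**
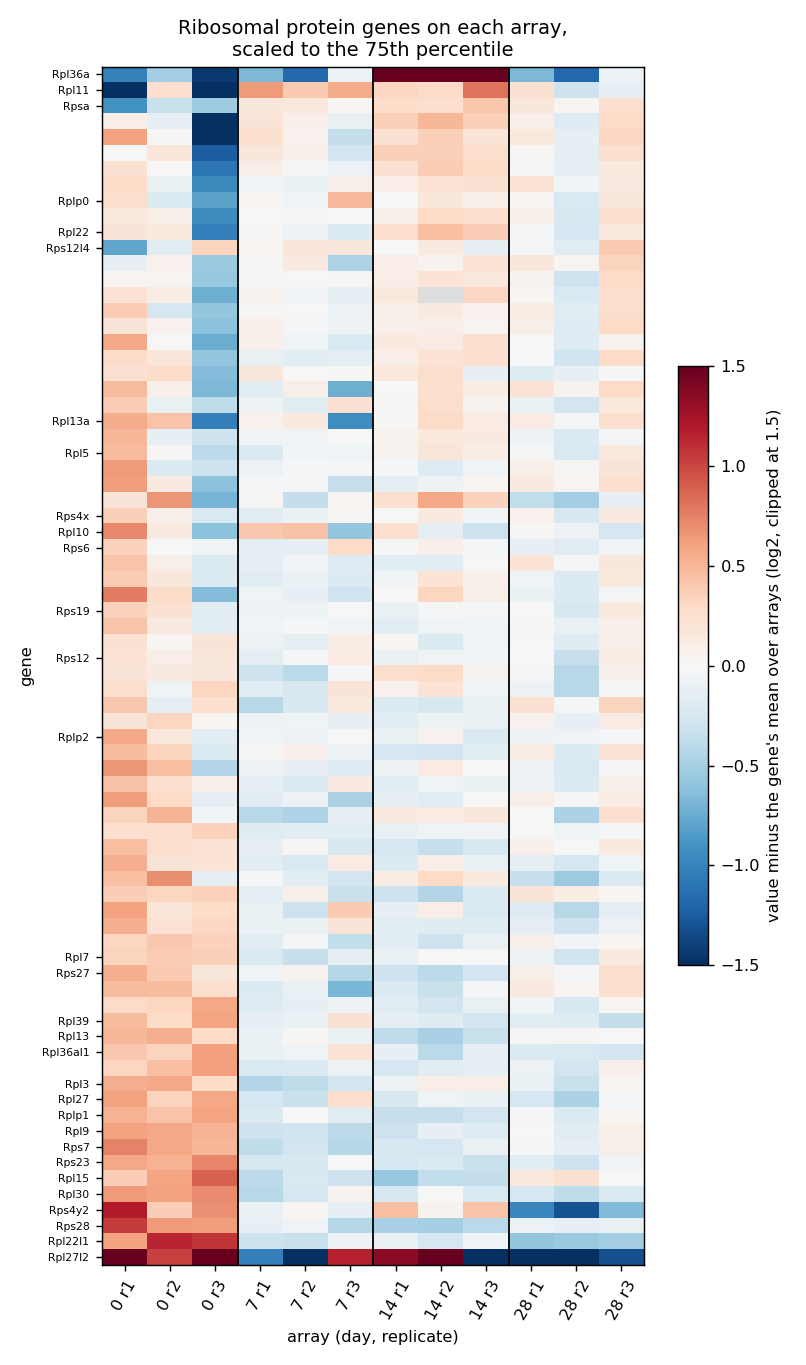
Heat map of the 76 genes (rows, ordered by their mean change over the graft days) on the 12 arrays (columns, by day and replicate), as deviation from each gene's mean over arrays on the log2 scale, with arrays scaled to the 75th percentile. The bottom rows are red on all 3 day 0 arrays, while many rows in the upper part, such as Rpl22, are blue on day 0 replicate 3. Row labels are given for the genes that the rule on named genes picked. Rpl36a, in the top row, is dark red on the day 14 arrays, the grey cell is 1 missing value of Rps15, and with quantile normalization the median of the 76 genes lies at or above 0 on the graft days.

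The changes that kept their direction and their call at each of 6 scalings, with normexp itself followed by quantile normalization, were few. At day 7 they were the rise of Rpsa and the falls of Rpl15, Rpl22l1 and Rps4y2. At day 14 they were the rises of Rpsa and Rpl36a and the falls of Rpl15 and Rpl22l1. At day 28 they were the rise of Rpsa and the falls of Rpl22l1 and Rps4y2. The genes of these changes were dimmer than the median member. At day 0 their means relative to the median member of each array ran from -3.14 (Rpsa) to -9.62 (Rpl36a). Whether brightness decided which calls held was not tested. With the scan as a fixed block, in which day 0 replicate 3 adds nothing, the calls that remained among the members were the rise of Rpl36a at day 14 and the fall of Rpl22l1 at day 28. Calls were lost across the array with that block. Of all 21063 tested probes 36 were higher and 19 lower at day 7, against 3728 and 3247 without it. At day 14 they were 631 and 403, against 4243 and 3658, and at day 28 they were 736 and 627, against 3668 and 3468.

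Rpsa encodes a protein of the small subunit that is also known as the laminin receptor, since a form of it lies at the cell surface and binds the basement membrane protein laminin. Its values were 2.79, 3.36 and 3.16 on the day 0 arrays, 3.87, 3.86 and 3.73 at day 7, 3.97, 3.94 and 4.12 at day 14, and 3.86, 3.74 and 3.94 at day 28. Every graft array lay above every day 0 array. The gene rose by 0.71 ± 0.18 (SE) on the log2 scale at day 7 (1.64-fold, adjusted p = 0.0108). At day 14 it rose by 0.91 ± 0.18 (1.87-fold, adjusted p = 0.0027) and at day 28 by 0.74 ± 0.18 (1.67-fold, adjusted p = 0.00926). With quantile normalization the changes were 0.84, 1.18 and 0.96. The calls were lost with the scan as a fixed block (adjusted p = 0.494, 0.137 and 0.115), and at days 7 and 28 also in fits of only the days compared (adjusted p = 0.114 and 0.0629). That block left 36 of 21063 tested probes higher at day 7, 631 at day 14 and 736 at day 28. Within scan 3 the difference of day 28 replicate 3 from day 0 replicates 1 and 2 was 0.87. The run of pyrimidines shown above for Rpsa ends 9 bases before its listed start.

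Rpl36a encodes a protein of the large subunit and was called at day 14 and on no other graft day. It had -3.41, -2.90 and -3.83 on the day 0 arrays, -3.07, -3.58 and -2.48 at day 7, -0.05, 0.42 and -0.71 at day 14, and -3.07, -3.57 and -2.48 at day 28. The 3 day 14 arrays stood far above all others and the other days overlapped. The probe was dim beside the family, with a mean relative to the median member of each array of -9.62 at day 0 and -6.08 at day 14. The scaled values of days 7 and 28 agreed within 0.005 in replicate order, which held for 1 of 24447 probes, and the reason was not tested. The unscaled intensities were 103.8, 79.9 and 121.2 at day 7 and 95.5, 83.2 and 141.3 at day 28. The gene rose by 3.27 ± 0.41 at day 14 against day 0 (9.62-fold, adjusted p = 0.000199). It was higher by 2.93 ± 0.41 at day 14 than at day 7 (adjusted p = 0.004), and day 28 minus day 14 was -2.93 ± 0.41 (adjusted p = 0.0051). The changes at days 7 and 28 were 0.34 ± 0.41 each, with adjusted p = 0.562 and adjusted p = 0.545.

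The difference of Rpl36a was as large within scans. Within scan 2 day 14 replicate 1 was 2.99 above the mean of the day 7 arrays, and within scan 1 the day 28 arrays were 3.18 below the day 14 arrays. Day 14 replicates 1 and 3 carried more signal of skeletal muscle genes than replicate 2, with median deviations of 0.69 and 1.25 against -2.29, and Rpl36a was high on all 3. Without replicates 1 and 3 the difference from day 7 was 3.46 (adjusted p = 0.0614, with day 14 down to 1 array that is assumed to vary like the other days), and with the scan as a fixed block it was 2.99 (adjusted p = 0.141). The day 14 pattern was not particular to Rpl36a. Or52m2 and Vangl1, picked for their correlation with it over the 12 arrays (Pearson r of 0.98 each), also stood out. At day 14 they lay 3.77 and 4.54 above the mean of the other days. The genes beside Rpl36a on the chromosome, looked up after its values were seen, gave other patterns. Btk, a kinase of B cells and myeloid cells, rose by 4.63 ± 0.40 at day 7, 4.72 ± 0.40 at day 14 and 3.89 ± 0.40 at day 28. Timm8a1, a mitochondrial import protein, fell by 0.62 ± 0.16 at day 14 and was not called on the other graft days. Gla, a lysosomal galactosidase, and Hnrnph2, an RNA-binding protein, were not called on any graft day, with changes at day 14 of 0.87 ± 0.34 and 0.67 ± 0.24.

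Rpl22l1 encodes a variant of the large subunit protein eL22 and is known in the mouse to be repressed by its partner Rpl22. Its values were 1.23, 1.77 and 1.70 on the day 0 arrays, 0.32, 0.29 and 0.55 at day 7, 0.52, 0.37 and 0.57 at day 14, and 0.04, 0.07 and 0.10 at day 28. All graft arrays lay below all day 0 arrays. Rpl22l1 fell by 1.18 ± 0.18 at day 7 (2.27-fold, adjusted p = 0.000858), by 1.08 ± 0.18 at day 14 (2.11-fold, adjusted p = 0.00111) and by 1.49 ± 0.18 at day 28 (2.82-fold, adjusted p = 0.000294). Rpl22 itself was not called, with changes of 0.14 ± 0.29, 0.59 ± 0.29 and 0.19 ± 0.29. Its values were 5.27, 5.21 and 4.05 on the day 0 arrays and lay between 4.81 and 5.52 on the graft arrays, so day 0 replicate 3 stood low.

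The ratio of Rpl22l1 to Rpl22 within an array is the same under any scaling by 1 factor per array, and only its change between days can be read. On the log2 scale it was -4.04, -3.44 and -2.35 on the day 0 arrays and between -5.15 and -4.31 on the 9 graft arrays. All graft arrays were below all day 0 arrays, with a mean difference of -1.56. The exact permutation test of the 9 graft against the 3 day 0 arrays gave p = 0.00455, the smallest it can give, and p = 0.0227 after adjustment over 5 pairs of genes. Within scan 3 the difference was -1.38. Without day 0 replicate 3 it was -1.09 (adjusted p = 0.0455), and without the other day 0 arrays in turn it was -1.94 and -1.64 (adjusted p = 0.0909 for both). In each of these the unadjusted exact permutation p was 0.0182, the smallest that 2 day 0 arrays allow.

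Rps4y2, named after a Y-linked relative of the small subunit gene Rps4x, is placed on chromosome 4 in the rat assembly. It had 1.78, 0.96 and 1.27 on the day 0 arrays, 0.50, 0.62 and 0.44 at day 7, 1.04, 0.65 and 1.02 at day 14, and -0.39, -0.71 and -0.07 at day 28. The day 28 arrays lay below all others and the day 14 arrays overlapped with those of day 0. The gene fell by 0.82 ± 0.24 at day 7 (adjusted p = 0.0268), a call lost in 10 of 26 alternatives, and by 1.73 ± 0.24 at day 28 (3.31-fold, adjusted p = 0.000719). At day 14 the change was -0.43 ± 0.24 (adjusted p = 0.188), and the difference of day 28 from day 14 was -1.29 ± 0.24 (adjusted p = 0.0188). Without either of day 14 replicates 1 and 3, or either of day 28 replicates 1 and 2, this last difference had adjusted p between 0.0745 and 0.0963. Rps4x was not called, with changes of -0.15, -0.04 and -0.08 (SE 0.19 each). The ratio of Rps4y2 to Rps4x within arrays averaged -6.06 at day 0, -6.72 at day 7, -6.45 at day 14 and -7.70 at day 28, and the graft days together differed from day 0 by -0.90 (exact permutation p = 0.0318, adjusted p = 0.053).

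**Figure D3:**
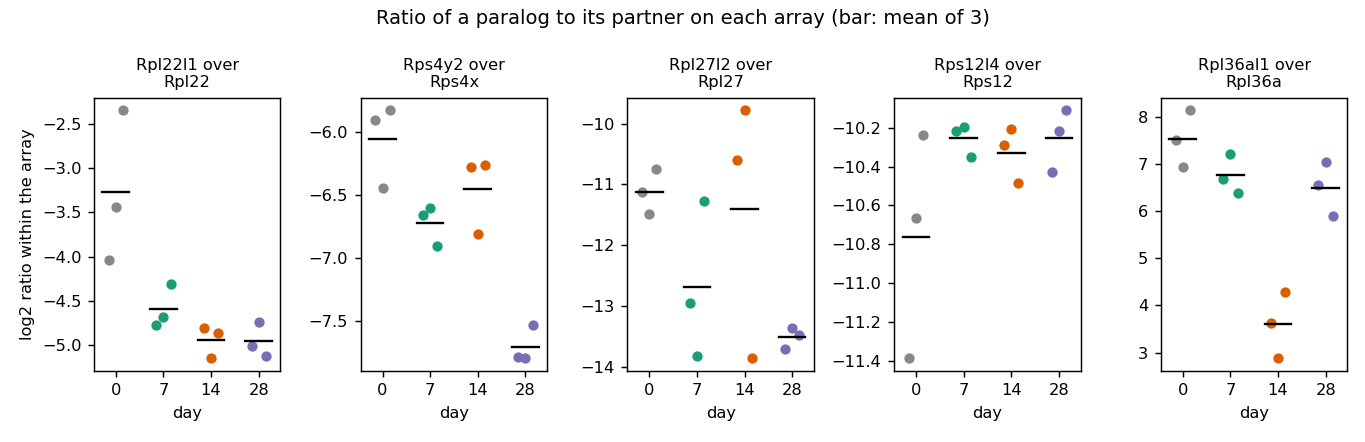
Log2 ratio of a near-copy to its partner within each array (vertical axis) by day (horizontal axis) for 5 pairs, with 1 point per array and the mean of 3 as a bar. The ratio of Rpl22l1 to Rpl22 lies between -5.15 and -4.31 on all graft arrays, below the day 0 arrays, and that of Rps4y2 to Rps4x is lowest at day 28. Rpl27l2 was well above background on 6 of the 12 arrays, so its ratio is not read.

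For the pairs of Rpl36al1 and Rps12l4, which with that of Rpl27l2 were added to the fixed pairs, the adjusted p was above 0.05. The ratio of Rpl36al1 to Rpl36a averaged 7.54 at day 0, 6.77 at day 7, 3.60 at day 14 and 6.50 at day 28 (graft days against day 0 -1.92, exact permutation p = 0.0727, adjusted p = 0.0909). Rpl36al1, a near-copy of Rpl36a by its symbol, fell by 0.67 ± 0.16 at day 14 and by 0.70 ± 0.16 at day 28 at the 75th percentile scaling and was not called at day 7 (-0.43 ± 0.16). The ratio of Rps12l4 to Rps12 was 0.48 higher on the graft days (exact permutation p = 0.0273, adjusted p = 0.053), and neither gene was called on any graft day. The ratio of Rpl27l2 to Rpl27 is not read here, since Rpl27l2 was well above background on 6 of 12 arrays. On no day 28 array was Rpl27l2 well above background, and its level there was at least 4.37-fold lower than in unoperated vein (adjusted p = 0.0331). It had -4.88, -5.52 and -4.53 on the day 0 arrays and ranged from -8.52 to -4.21 over days 7 and 14, where the arrays of a day disagreed.

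Rpl15, which encodes a protein of the large subunit, fell on the earlier graft days. Its values were 0.00, 0.23 and 0.52 on the day 0 arrays, -0.76, -0.59 and -0.67 at day 7, -0.93, -0.73 and -0.72 at day 14, and -0.20, -0.13 and -0.36 at day 28. The arrays of days 7 and 14 lay below all other arrays, and those of day 28 below those of day 0. It fell by 0.93 ± 0.17 at day 7 (adjusted p = 0.0027) and by 1.04 ± 0.17 at day 14 (adjusted p = 0.00112), and had a change of -0.48 ± 0.17 at day 28 (adjusted p = 0.0555). Rpl15 is one of the 10 members without a value above the 75th percentile on every array. Among these, Rps15 is counted only for its missing value on day 14 replicate 2.

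Among the brighter members the largest falls at the 75th percentile scaling were those of Rps28, Rps7, Rpl9, Rps23 and Rpl30 among members named by the rule, and none of these was called with quantile normalization or normexp (adjusted p of 0.0614 or more). Rps28, a small protein at the exit of the messenger RNA channel, had 6.92, 6.52 and 6.50 on the day 0 arrays, 5.75, 5.82 and 5.45 at day 7, 5.38, 5.38 and 5.47 at day 14, and 5.79, 5.75 and 5.76 at day 28. No graft array reached a day 0 array. It fell by 0.97 ± 0.17 at day 7 (adjusted p = 0.00194), by 1.24 ± 0.17 at day 14 (2.35-fold, adjusted p = 0.00038) and by 0.88 ± 0.17 at day 28 (adjusted p = 0.00368). With quantile normalization the changes were -0.70, -0.74 and -0.37 (adjusted p = 0.142, 0.113 and 0.423). Within scan 3 its difference between day 28 and day 0 was -0.95 at the 75th percentile scaling.

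Rps7, which binds MDM2 and so links ribosome assembly to p53, had 6.25, 6.08 and 5.998 on the day 0 arrays, 5.12, 5.21 and 5.07 at day 7, 5.27, 5.23 and 5.40 at day 14, and 5.48, 5.35 and 5.59 at day 28. All graft arrays lay below the day 0 arrays. It fell by 0.97 ± 0.15 at day 7 (adjusted p = 0.000894), by 0.81 ± 0.15 at day 14 and by 0.64 ± 0.15 at day 28. Rps23, a protein of the decoding centre, had 6.60, 6.55 and 6.76 at day 0 and between 5.69 and 6.03 on the graft arrays. It fell by 0.77 ± 0.15, 0.88 ± 0.15 and 0.79 ± 0.15 at days 7, 14 and 28. Rpl9 had 7.04, 7.02 and 6.95 at day 0 and between 6.04 and 6.53 on the graft arrays. It fell by 0.90 ± 0.14, 0.77 ± 0.14 and 0.59 ± 0.14, and Rpl30 fell by 0.85 ± 0.17, 0.80 ± 0.17 and 0.94 ± 0.17. These groups of arrays did not overlap.

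**Figure D4:**
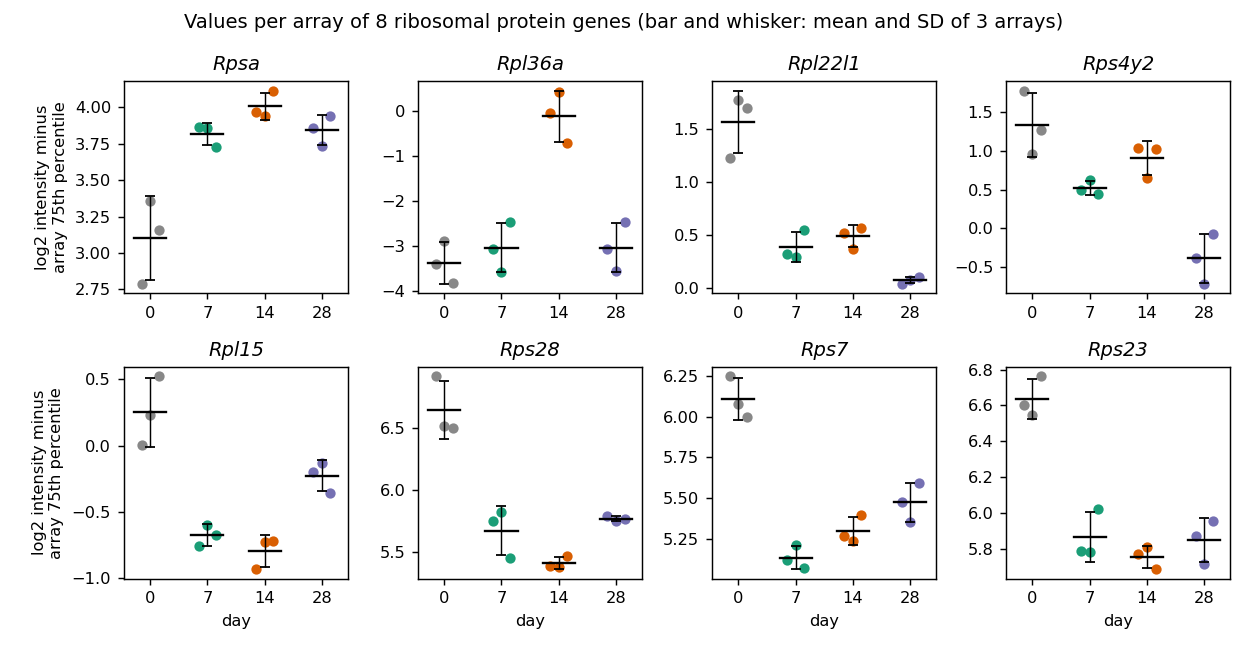
Values of 8 genes on each array (log2 intensity minus the array's 75th percentile, vertical axis) by day (horizontal axis), with points for arrays and the mean and SD of 3 arrays in black. Rpsa is higher on all graft arrays, Rpl36a stands out at day 14 alone, Rps4y2 is lowest at day 28, and Rpl22l1, Rps28, Rps7 and Rps23 are lower on all graft arrays. Rpl15 is lower at days 7 and 14. Rps28, Rps7 and Rps23 were not called with quantile normalization.

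The members lower on all 3 graft days at the 75th percentile scaling numbered 11, among them Rpl13, Rpl22l1, Rpl30, Rpl9, Rplp1, Rps23, Rps28 and Rps7, and 26 members were lower on at least 1. Rpl13 fell by 0.50 ± 0.14, 0.84 ± 0.14 and 0.43 ± 0.14, and with quantile normalization its day 28 value turned to 0.04. Rpl3, which lies near the peptidyl transferase centre, fell by 0.83 ± 0.16 at day 7 and by 0.60 ± 0.16 at day 28 and had a change of -0.43 ± 0.16 at day 14. Rps27 fell by 0.51 ± 0.18 at day 7 and by 0.70 ± 0.18 at day 14, Rpl39 fell by 0.65 ± 0.16 at day 14 and by 0.68 ± 0.16 at day 28, and Rpl7 fell by 0.60 ± 0.16 at day 7, none of which was called with quantile normalization. Among the other members called lower the smallest fall was that of Rpl24 at day 7 (0.43 ± 0.15), named after its value was seen, and the largest that of Rpl27 at day 28 (0.76 ± 0.20). On no graft day were 47 members called. On single days 15.4%, 17.4% and 16.5% of all tested probes were lower at days 7, 14 and 28. The share of all probes lower on every graft day, on at least 1, or called on none was not counted. The counts of 11, 26 and 47 are therefore not read against the array.

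The stalk of the large subunit, which recruits elongation factors, is made of Rplp0, Rplp1 and Rplp2, and its genes gave different results at that scaling. Rplp1 had 7.52, 7.41 and 7.58 on the day 0 arrays, 6.77, 7.00 and 6.83 at day 7, 6.64, 6.64 and 6.71 at day 14, and 6.97, 6.78 and 7.02 at day 28. Its graft arrays lay below the day 0 arrays. It fell by 0.64 ± 0.15 at day 7 (adjusted p = 0.00811), by 0.84 ± 0.15 at day 14 (adjusted p = 0.0016) and by 0.58 ± 0.15 at day 28 (adjusted p = 0.0133). Rplp0, often used as a control gene in PCR, was not called, with changes of 0.41, 0.34 and 0.24 (SE 0.26 each), and had 7.18, 6.71 and 6.13 on the day 0 arrays. Rplp2 was not called either, with changes of -0.24, -0.28 and -0.23 (SE 0.19 each). The differences between the 3 stalk genes were not tested.

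Of Rps6, Rps19, Rpl5, Rpl11 and Rpl13a, picked for known roles outside the ribosome or in disease, Rpl11 was called on a graft day, as was Rps7, described above. Rps6, the substrate of the S6 kinases, had changes of -0.09, -0.09 and -0.21 (SE 0.18 each). Rps19, mutated in the anaemia named after Diamond and Blackfan, had changes of -0.18, -0.19 and -0.17 (SE 0.18 each). Rpl5, which with Rpl11 and 5S RNA binds MDM2, had changes of -0.14, 0.08 and -0.06 (SE 0.22 each), and Rpl13a, part of a complex that silences inflammatory messenger RNAs in human monocytes, had -0.22, 0.16 and 0.13 (SE 0.41 each). Rpl10 had 0.01, -0.15 and -0.19 (SE 0.36 each). Rpl11 rose by 1.46 ± 0.42 at day 7 (adjusted p = 0.0228) and by 1.40 ± 0.42 at day 14 (adjusted p = 0.0243), but its probe was dim, at -8.00, -6.21 and -7.96 on the day 0 arrays and between -6.78 and -5.65 on the graft arrays. With normexp its changes were 0.20 and 0.18 and were not called, and with quantile normalization they were 1.96 and 1.78 and were called.

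Lists of other genes of the translation machinery are set against the shares of all tested probes, of which 17.7%, 20.1% and 17.4% were higher and 15.4%, 17.4% and 16.5% lower at days 7, 14 and 28. Of 11 elongation and release factors 2 were higher on each graft day (18.2%), near the share of all probes, and 0 lower. Among them was Eef1g, a subunit of the exchange factor of elongation factor 1 (0.63 ± 0.15 at day 7). Aminoacyl-tRNA synthetases, which charge transfer RNAs, were higher in 3, 5 and 5 of 19 (15.8%, 26.3% and 26.3%) at days 7, 14 and 28 and lower in 0, and the day 14 count was 8 with quantile normalization. Cars1 was among them (0.90 ± 0.22, 0.95 ± 0.22 and 1.24 ± 0.22). RNA polymerase I and its factors, which make ribosomal RNA, were higher in 2, 3 and 4 of 12 genes (16.7%, 25% and 33.3%) and lower in 0, 1 and 1. Taf1a, a subunit of its selectivity factor, rose by 1.36 ± 0.31, 1.91 ± 0.31 and 2.08 ± 0.31. Polr1f, a subunit of the enzyme, fell by 1.37 ± 0.19 at day 14 and rose by 0.76 ± 0.19 at day 28. It had -4.02, -3.47 and -3.75 on the day 0 arrays and -5.10, -4.96 and -5.30 at day 14. Of 58 mitochondrial ribosomal protein genes tested 14, 17 and 14 were lower and 1, 2 and 2 higher, with medians of -0.44, -0.37 and -0.41, and with quantile normalization the counts were 14, 18 and 14 lower.

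Initiation factors were higher in 2, 3 and 2 of 28 genes (7.14%, 10.7% and 7.14%) and lower in 2, 5 and 0 (7.14%, 17.9% and 0%). Of all tested probes 17.7%, 20.1% and 17.4% were higher and 15.4%, 17.4% and 16.5% lower on these days. With quantile normalization the balance at day 14 turned, to 6 higher and 2 lower. Eif4g3, a scaffold of cap-binding, rose by 1.45 ± 0.24, 1.81 ± 0.24 and 1.61 ± 0.24, and Eif3a fell by 0.71 ± 0.16 at day 7 and by 0.83 ± 0.16 at day 14. Ribosome assembly factors were higher in 2, 4 and 4 of 33 genes (6.06%, 12.1% and 12.1%) and lower in 2, 3 and 2 (6.06%, 9.09% and 6.06%). With quantile normalization 6 were higher at days 14 and 28. Nop56 was at 1.13 ± 0.28 and Sbds at -1.04 ± 0.25 at day 14. Other messenger RNAs with a terminal pyrimidine tract were higher in 0, 1 and 1 of 10 and lower in 1, 3 and 2, and their median at days 7, 14 and 28 was -0.15, -0.04 and -0.21 at the scaling used and 0.07, 0.39 and 0.27 with quantile normalization. Among them Npm1, which encodes nucleophosmin, rose by 1.57 ± 0.37 at day 14, and Btf3 fell by 0.85 ± 0.18. Genes of growth signalling to the ribosome were higher in 2 of 14 on each day (14.3%) and lower in 1, 1 and 0 (7.14%, 7.14% and 0%), including a fall of Mtor by 0.70 ± 0.15 at day 7. The kinase gene Rps6ka1, left out of the family by its symbol, rose by 2.50 ± 0.59 at day 7.

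**Figure D5:**
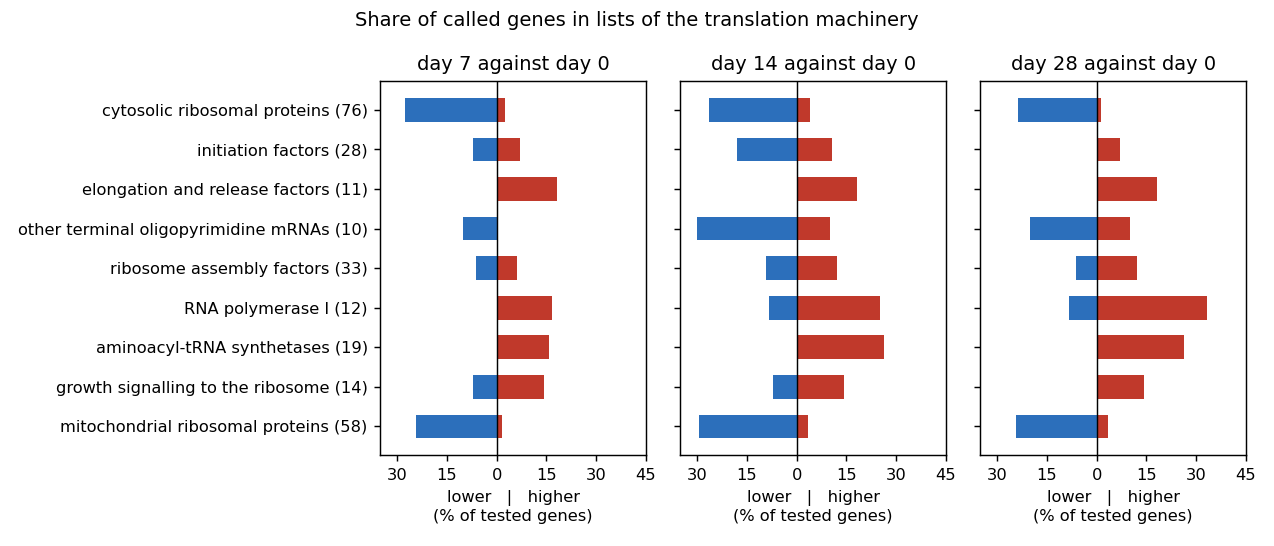
Share of tested genes called higher (red, to the right) and lower (blue, to the left) at days 7, 14 and 28 against day 0 for the ribosomal protein genes and 8 lists of related genes, with the number tested in brackets and arrays scaled to the 75th percentile. Lower calls outnumber higher ones on each day in the cytosolic and mitochondrial ribosomal proteins (21 of 76 and 14 of 58 lower at day 7). They also do so in the other terminal oligopyrimidine mRNAs (1, 3 and 2 lower against 0, 1 and 1 higher) and at day 14 in initiation factors (5 against 3). Of all tested probes 15.4% were lower and 17.7% higher at day 7. With quantile normalization the lower calls at day 7 were 3 of the 76 members and 3424 of all 21063 tested probes.

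Markers of other cell types moved with the days, and their part in these results was not tested. Of 10 macrophage markers 8, 9 and 7 rose, and the median deviation of the list was -3.68 to -1.48 on the day 0 arrays, 0.33 to 1.64 at day 7, 1.17 to 1.42 at day 14 and 0.31 to 0.58 at day 28. All 6 smooth muscle markers tested fell on each day, with median deviations of -1.61 to -0.23 on the graft arrays and 2.15 to 3.01 on the day 0 arrays. Fat cell markers fell in 5, 6 and 5 of 7. Endothelial markers fell in 4, 4 and 2 of 6, and 1 rose at day 28. Proliferation markers rose in 4 of 8 on each graft day, and 1 fell at day 28. T and NK cell markers rose in 7, 8 and 5 of 10, B and plasma cell markers in 2, 0 and 2 of 2, and erythroid markers in 3, 1 and 2 of 4. Skeletal muscle markers rose in 0, 4 and 9 of 10, and lay between 1.44 and 5.32 at day 28 against -3.06 to -2.26 at day 0. A fit without the 2 day 14 arrays that carried skeletal muscle signal leaves day 14 with replicate 2 alone. Its counts of calls are therefore not read for cell types.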

How the data were processed

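RNA of 12 vein samples was measured on single-colour arrays. The deposited scanner tables hold spot intensity on a linear scale, which per the file headers was background-corrected in Agilent Feature Extraction (version 11.0.1.1), with well-above-background, saturation and outlier marks among the other columns. The authors also deposited a processed table, log2 as judged from its values, whose normalization is not given in the sources used here. Its columns had medians of 7.149 to 7.153. Total RNA was freed of ribosomal RNA and labelled along whole transcripts, per the labels' protocols.

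From these, each array's 75th percentile was subtracted from log2 intensity, spots marked as outliers were left out, spots of a probe were averaged, and 21063 of 24684 probes well above background on at least 3 arrays were fitted with limma 3.58.1 (R 4.3.3) on all arrays with no covariate, then adjusted by Benjamini-Hochberg. Depth of counting does not apply to arrays, and their number (3 a day) limits precision. Symbols came from RefSeq (GRCr8) by accession, for 14294 probes, and promoter sequences are those of RefSeq on GRCr8. The genes named were the 5 largest called rises and falls per graft day, the stalk genes, Rpsa, Rps6, Rps19, Rpl5, Rpl11 and Rpl13a. Also named were genes of near-copy pairs, members called between graft days, and up to 3 genes of each other list per graft day. The fixed pairs include Rpl3, Rpl7, Rpl10, Rpl39 and Rps27, whose near-copies are not analysed here. The pairs of Rpl27l2, Rps12l4 and Rpl36al1 were added to the fixed ones. Changes are tested over all arrays, and near-copy ratios by an exact two-sided permutation test of 9 against 3 arrays. Alternatives were other scalings, normexp, filters, the scan as a block, and arrays left out. Normexp used an offset of 50 on median spot and background signals, since mean signals are not given, and was followed by quantile normalization. Python 3.11.15 was used for tables and figures. A probe not well above background on a whole day has a bound, written "at least", from the mean of the brighter day against, on each array, the dim probe itself or the faintest probe well above background, whichever was higher. The scan block is a fixed term, or a random one estimated by limma. Some members are counted but not reported by name here. The members, lists and tests were chosen with earlier results of these data known.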

Additional observations from a re-analysis of the deposited data

Results flagged for a closer look

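Rpl36a differed between graft days, by 2.93 between day 14 and day 7 (adjusted p = 0.004 in limma) and by -2.93 between day 28 and day 14 (adjusted p = 0.0051). Rps4y2 differed by -1.29 between day 28 and day 14 (adjusted p = 0.0188), and by -1.04 without day 14 replicates 1 and 3 (adjusted p = 0.375), a fit in which day 14 is 1 array that is assumed to vary like the other days. Each was set apart because 2 graft days differed in their change from day 0 by the test of that difference.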

How the results depend on the processing

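No paired analysis was possible because the labels number every array alike. The table gives 26 other settings. The family's shift hung on the scaling: with quantile normalization, normexp and the authors' deposited table the median change of the 76 genes was 0.011, -0.00039 and 0.0059 at day 7, 0.23, 0.24 and 0.23 at day 14, and 0.27, 0.23 and 0.27 at day 28, and the lower calls were 3, 4 and 3 at day 7, 2, 3 and 2 at day 14, and 4, 4 and 4 at day 28. Over all tested probes the lower calls under these settings ran from 3210 to 3812 across days 7, 14 and 28. Under the same settings 6, 6 and 6 members were called for the mean of the graft days and 6, 6 and 6 over the 4 days. Higher calls at day 7 were 1 with normexp, with probes well above background on all arrays, without the arrays with many non-uniform spots and with array weights, and at day 28 they were 2 with quantile normalization. With the scan as a fixed block the members' lower and higher calls were 0 and 0 at day 7, 0 and 1 at day 14, and 1 and 0 at day 28. Over all tested probes they were 19 and 36, 403 and 631, and 627 and 736. That block left 0 member calls between days 14 and 7, 1 between days 28 and 14, 0 for the graft mean, 1 over the 4 days and 1 call in the companion lists. Fits of only the days compared gave 3 lower and 0 higher at day 7, 12 lower at day 14, 7 lower and 0 higher at day 28, 11 between days 28 and 14, and 33 in the companion lists. Without day 14 replicates 1 and 3 there were 12 lower at day 7, 3 lower and 1 higher at day 14, 0 between days 14 and 7, 0 between days 28 and 14, 10 over the 4 days and 36 in the companion lists. Without day 0 replicate 3 and day 7 replicate 3, 8 were called between days 28 and 14. Array weights gave 21 calls between days 14 and 7, 42 between days 28 and 14 and 35 between days 28 and 7. Those weights ran from 0.079 for day 0 replicate 3 to 25.3 for day 28 replicate 1. Day 14 replicate 1 had 11.7 and day 7 replicate 1 had 7.55, so 1 array held most of the weight of each graft day. No share of all probes is given for that fit, and its counts are not read as a result about the members. The cause of the differences between settings was not tested, except that settings with fewer arrays have less to test with.

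Leaving out each array in turn gave 12 to 25 lower and 1 to 2 higher calls at day 7, 16 to 23 lower and 2 to 6 higher at day 14, 9 to 21 lower and 1 to 2 higher at day 28, 1 to 5 between days 28 and 14, and 15 to 26 over the 4 days. The median change of the members lay between -0.39 and -0.13 at day 7, -0.35 and -0.083 at day 14, and -0.31 and -0.073 at day 28, lowest without day 0 replicate 3 and nearest 0 without day 0 replicate 1. The lowest counts of lower calls came without day 7 replicate 1 (12) and day 28 replicate 2 (9). The ratio of Rps4y2 to Rps4x changed by -1.35 with quantile normalization, -1.23 with normexp, -1.35 in the authors' deposited table and -1.10 without day 14 replicates 1 and 3, now past the threshold, and by -1.09 to -0.78 without single arrays. The ratio of Rpl22l1 to Rpl22 changed by -1.16 without the arrays with many non-uniform spots, no longer past the threshold with 2 day 0 arrays, and by -1.94 to -1.09 without single arrays. The ratio of Rps12l4 to Rps12 changed by 0.52 without day 14 replicates 1 and 3, past the threshold, and by 0.17 to 0.75 without single arrays. Of 1297 recomputed values of the 50 called changes of named members, 1026 kept direction and call, 268 kept the direction without the call, and 3 turned, all of them Rpl13 at day 28, at 0.039 with quantile normalization, 0.085 with normexp and 0.041 in the authors' deposited table. Dim probes (Rpl11, Rpl27l2) limit what signal over background can show.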
